A study of Mus musculus with 8 samples.

Results

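The 10 genes described here are *Mx1*, *Mx2*, *Rsad2*, *Cmpk2*, *Bst2*, *Samhd1*, *Apobec3*, *Rtp4*, *Ifi44* and *Ifi35*, interferon-induced genes grouped here as antiviral effectors. Most encode proteins that act on viruses or on the nucleotides that viruses need. They were chosen by symbol, and all 10 were found among the 22520 genes and assembled transcripts of the table. The cells were mouse CD8+ T cells purified from the spleens of wild-type mice and stimulated with anti-CD3 and anti-CD28 antibodies and IL-2 for 6 days, a culture model of exhaustion. From day 3 the medium held either 40 µM DADA (diisopropylamine dichloroacetate, an inhibitor of pyruvate dehydrogenase kinase) or the solvent DMSO, with 4 libraries of bulk RNA per group. The methods read list male C57BL/6J mice among several strains, without tying a strain, age or sex to these libraries. The labels call the libraries biological replicates without saying whether mice or only cultures were separate, so p-values measure the spread between these libraries. Expression is given in FPKM, the fragments of a gene scaled to transcript length and to the depth of the library, so that levels can be compared between genes.

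These genes are part of the interferon response. Type I interferon binds the receptor IFNAR1/IFNAR2, the kinases JAK1 and TYK2 signal through STAT2 and IRF9, which act at interferon-stimulated response elements (ISREs) near target genes. The products block viruses at different steps, from entry and genome synthesis to the release of particles, and T cells can express them without infection when interferon is present.

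The promoters of *Bst2*, *Rsad2* and *Apobec3* are shown because they hold letters that match the core of an ISRE. The 3 transcripts differed in their level with DMSO and in the size of their change. A match of letters is a description, and whether the element is used in these cells was not tested. Each run is the 250 bases before the RefSeq start of the gene, read 5′ to 3′ on the strand of the gene, with the ISRE core in capitals. The *Bst2* window is chr8:71537473-71537722 (minus strand), the *Rsad2* window chr12:26456453-26456702 (minus strand) and the *Apobec3* window chr15:79892158-79892407 (plus strand), all in RefSeq's GRCm38.p6.
Bst2: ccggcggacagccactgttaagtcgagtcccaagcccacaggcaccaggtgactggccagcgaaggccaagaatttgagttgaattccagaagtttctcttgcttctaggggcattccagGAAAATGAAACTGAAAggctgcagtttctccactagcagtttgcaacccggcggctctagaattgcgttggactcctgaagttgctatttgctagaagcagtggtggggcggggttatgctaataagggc
Rsad2: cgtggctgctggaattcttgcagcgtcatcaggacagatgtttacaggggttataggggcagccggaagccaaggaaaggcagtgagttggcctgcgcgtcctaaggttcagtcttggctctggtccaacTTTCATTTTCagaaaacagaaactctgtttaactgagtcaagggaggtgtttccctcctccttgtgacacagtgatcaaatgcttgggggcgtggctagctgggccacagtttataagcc
Apobec3: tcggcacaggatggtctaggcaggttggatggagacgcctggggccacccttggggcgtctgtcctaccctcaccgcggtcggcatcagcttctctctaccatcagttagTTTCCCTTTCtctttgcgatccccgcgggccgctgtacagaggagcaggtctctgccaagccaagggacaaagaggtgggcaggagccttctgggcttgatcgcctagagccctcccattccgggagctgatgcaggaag

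The core searched was GAAA, any 2 bases and GAAA again, on both strands, in windows from 250 bases before to 50 after the start. *Bst2* held it at -130 to -121 and again, overlapping, at -124 to -115, counted from the start. *Rsad2* held it on the other strand at -120 to -111, and *Apobec3* at -140 to -131 in the first of its 2 windows. Of the 10 genes, 7 had a window in the table, and 3 of their 8 windows held the core, against 3.44% of all 32851 windows. The windows of *Samhd1*, *Ifi44*, *Ifi35* and *Cmpk2* and the second window of *Apobec3* did not hold these letters, which says nothing about other positions. A second motif, the gamma-activated sequence TTCNNNGAA known from the interferon gamma response, was in the windows of *Samhd1*, *Bst2* and *Ifi35* and in 8.30% of all windows. In *Bst2* it overlapped the first ISRE core, at -136 to -128.

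All 10 genes had higher expression in DADA-treated CD8+ T cells, and for each of them every DADA library lay above every DMSO library. On the log2(FPKM + 1) scale used throughout, *Rsad2*, *Mx2*, *Mx1*, *Rtp4* and *Cmpk2* changed the most, from means of 1.23 FPKM or less to means between 8.21 and 17.9 FPKM. *Bst2* and *Samhd1* more than doubled from an already high level, *Ifi35* rose less, and *Apobec3* had the highest expression of the 10 in both groups and the smallest change. *Ifi44* rose from nearly no fragments to a low level, so that its place in this order depends on the scale.
All 10 passed the limma test over 10666 genes with an adjusted p-value under 0.05, a call that 30.9% of all genes tested had in this direction and 66.2% in either. Groups that did not overlap in this direction were seen for 28.4% of all genes tested, and in the other direction for 32.2%. A log2 fold change of at least 1 was reached by 8 of the 10 and by 3.56% of all genes tested. The median log2 fold change was 2.06 over the 10 genes and -0.02 over all genes tested. However, *Mx2*, *Rsad2*, *Cmpk2*, *Rtp4* and *Ifi44* passed the filter of 1 FPKM in 4 libraries through the DADA libraries alone, so their place in these counts and in the median was bound to the change. The other 5 genes were all called higher, with a median log2 fold change of 1.24. With a pseudocount of 0.1 in place of 1, the log2 fold changes of *Mx2*, *Rsad2* and *Ifi44* were more than 1.5 times larger, at 4.95, 5.48 and 3.93. In bulk RNA, a higher level per cell and more cells with the transcript cannot be told apart.

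**Figure D1:**
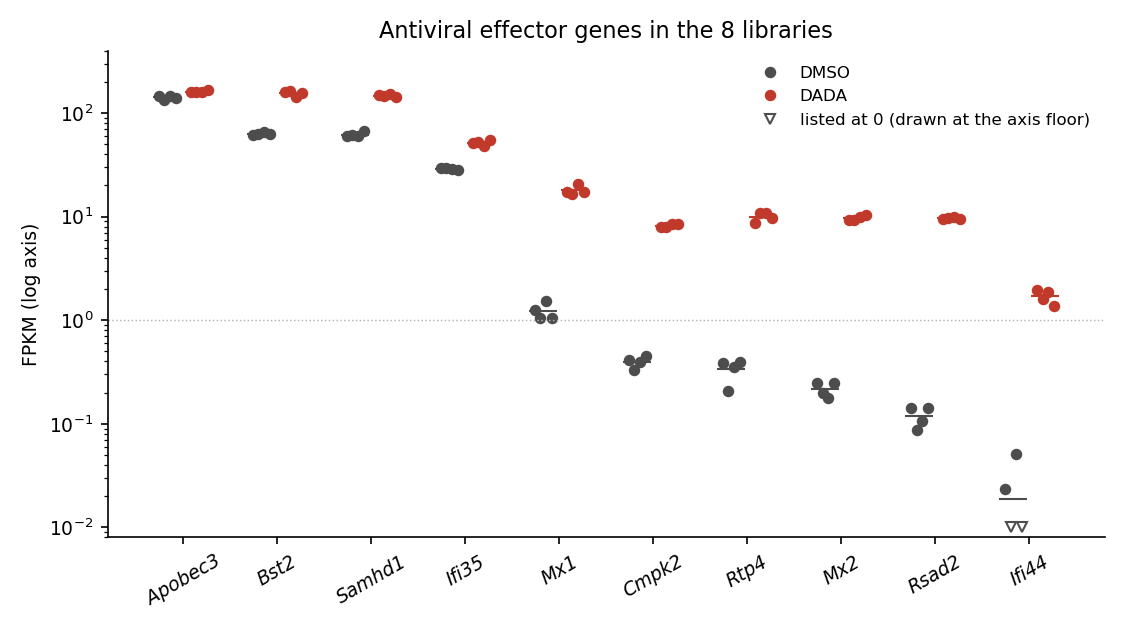
Expression of the 10 genes (FPKM, log axis) in each of the 4 DMSO (grey) and 4 DADA (red) libraries, with lines at the group means and the dotted line at the filter of 1 FPKM. The DADA points lie above the DMSO points for every gene, closely for Apobec3 and far apart for Rsad2, and 2 DMSO libraries list Ifi44 at 0.

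MX1 and MX2 are dynamin-like GTPases that trap viral nucleoprotein complexes. *Mx1* (ENSMUSG00000000386) was at 1.27, 1.06, 1.55 and 1.05 FPKM in DMSO 1 to 4 and at 17.4, 16.4, 20.6 and 17.2 FPKM in DADA 1 to 4. *Mx2* (ENSMUSG00000023341) was at 0.249, 0.196, 0.178 and 0.247 FPKM with DMSO and at 9.22, 9.24, 9.84 and 10.4 FPKM with DADA. Neither gene had overlapping groups, and the lowest DADA library was 10.6 times the highest DMSO library for *Mx1* and 37.0 times for *Mx2*. The log2 fold change of *Mx1* was 3.08 ± 0.0868 (SE, adjusted p = 1.02e-09, limma) and that of *Mx2* was 3.13 ± 0.0558 (SE, adjusted p = 4.75e-11, limma).
RefSeq annotates both genes as transcribed pseudogenes in the C57BL/6J reference, whereas GENCODE M21 has *Mx1* as protein-coding and *Mx2* as a polymorphic pseudogene. Laboratory strains are known to carry *Mx* alleles that make no functional protein, so these values are of transcript and not of MX protein. The genes lie close together on chromosome 16, and 1.71% of the 75-base words of *Mx1* transcripts also occur in *Mx2*. Within a library, the FPKM of *Mx1* was 4.26 to 8.71 times that of *Mx2* with DMSO and 1.65 to 2.09 times with DADA. The ratio was therefore lower in every DADA library, although in DMSO it rests on about 5.9 to 9.2 estimated fragments of *Mx2* per library.

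RSAD2, also called viperin, turns CTP into a chain-terminating nucleotide that stops viral RNA synthesis, and CMPK2 is a mitochondrial kinase of CMP and UMP that feeds the same nucleotide pool. Their genes are neighbours on chromosome 12, with no annotated gene between them. *Rsad2* (ENSMUSG00000020641) was at 0.143, 0.0877, 0.107 and 0.142 FPKM with DMSO and at 9.57, 9.69, 9.86 and 9.50 FPKM with DADA. The DADA libraries were the tightest group of the 10 genes, with a coefficient of variation of 1.61%. *Rsad2* had the largest log2 fold change of the 10, 3.25 ± 0.0470 (SE, adjusted p = 1.20e-11, limma), which ranked 15 of all genes tested. On the FPKM scale its mean was 80.6 times higher with DADA. *Cmpk2* (ENSMUSG00000020638) was at 0.412, 0.328, 0.392 and 0.454 FPKM with DMSO and at 7.89, 7.93, 8.56 and 8.47 FPKM with DADA. Its groups were far apart as well, with a ratio of means of 20.7 and a log2 fold change of 2.72 ± 0.0533 (SE, adjusted p = 7.74e-11, limma).
With DMSO, *Rsad2* was below *Cmpk2* in every library, at 0.267 to 0.346 of its FPKM. With DADA the order was turned, and *Rsad2* was at 1.12 to 1.22 times the FPKM of *Cmpk2* in every library. The DMSO values correspond to about 5.4 to 8.0 fragments of *Rsad2* and 17.2 to 21.1 fragments of *Cmpk2* per library by the depth estimated here.

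**Figure D2:**
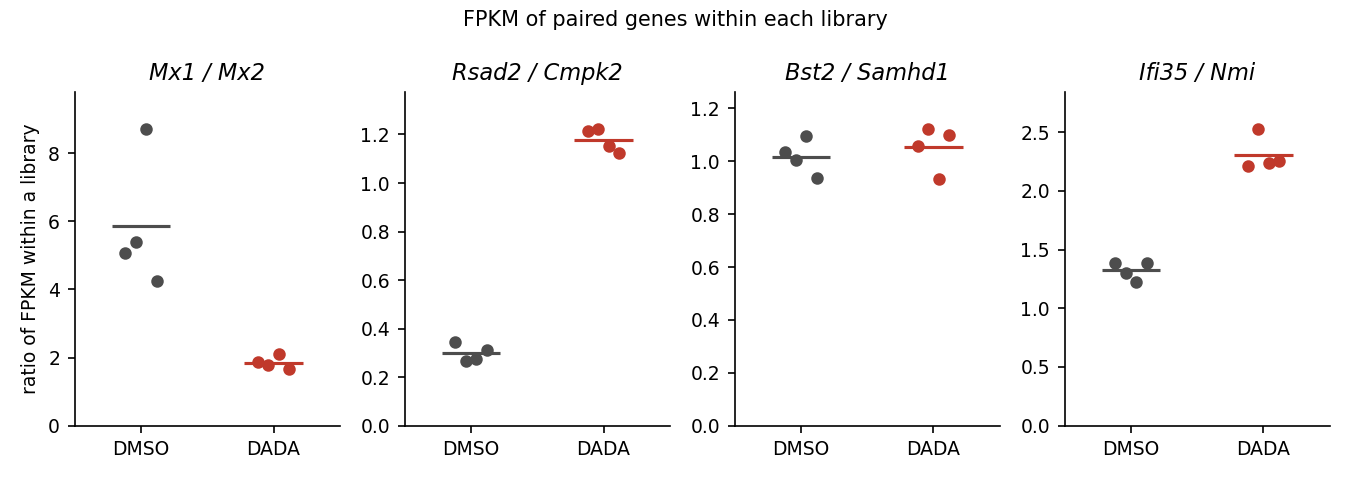
Ratio of the FPKM of 2 genes within each library (linear axis from 0), for 4 DMSO (grey) and 4 DADA (red) libraries, with lines at the means. Mx1 over Mx2 falls from 4.26 to 8.71 with DMSO to 1.65 to 2.09 with DADA, Rsad2 over Cmpk2 rises from 0.267 to 0.346 to 1.12 to 1.22, Bst2 over Samhd1 overlaps between the groups, and Ifi35 over Nmi rises.

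BST2, or tetherin, holds budding enveloped viruses at the cell surface. *Bst2* (ENSMUSG00000046718) was at 61.8, 62.2, 65.3 and 62.3 FPKM with DMSO and at 159, 163, 142 and 158 FPKM with DADA. DMSO 3 was slightly above the other DMSO libraries, and DADA 3 was the lowest of its group. The log2 fold change was 1.29 ± 0.0408 (SE, adjusted p = 2.29e-09, limma) and the mean was 2.47 times higher with DADA.
BST2 is also a surface marker of mouse plasmacytoid dendritic cells. Of 8 other markers of that cell type, *Klk1* and *Cd300c* were listed at 0 in every library, *Siglech* did not exceed 0.0329 FPKM, and only *Tcf4* and *Pacsin1* reached 1 FPKM. Their summed level was 4.51 to 6.88 FPKM with DMSO and 5.21 to 7.24 FPKM with DADA, so the groups overlapped. *Tcf4* itself was called higher, by 0.77 on the log2 scale (adjusted p = 5.11e-04, limma), and its part in the *Bst2* result was not tested.

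SAMHD1 hydrolyses deoxynucleoside triphosphates (dNTPs) and so starves reverse transcription. *Samhd1* (ENSMUSG00000027639) was at 59.7, 61.9, 59.6 and 66.5 FPKM with DMSO and at 149.6, 145, 152 and 143 FPKM with DADA. Its level and its change were close to those of *Bst2*: the ratio of their FPKM within a library was 0.936 to 1.10 with DMSO and 0.932 to 1.12 with DADA. The log2 fold change of *Samhd1* was 1.24 ± 0.0370 (SE, adjusted p = 1.51e-09, limma).
Enzymes that make or salvage dNTPs and CTP went the other way. Of 15 such genes tested, 14 were lower with DADA, against 35.3% of all genes tested, and the median log2 fold change of the 15 was -0.47. A further listed gene, the CTP synthase *Ctps*, was not found under that symbol and so was not tested. *Tyms*, the thymidylate synthase, fell by 0.97 on the log2 scale, *Dctd* by 0.81, *Tk1* by 0.75 and *Nme1* by 0.69. The ribonucleotide reductase subunits *Rrm1* (98.4 ± 1.45 to 66.9 ± 1.37 FPKM, SD, n = 4) and *Rrm2* (112 ± 3.51 to 73.4 ± 0.485 FPKM) also fell, with log2 fold changes of -0.55 and -0.60 (limma, adjusted p = 1.80e-08 and 2.14e-08). *Ctps2*, a CTP synthase, was the only one higher, at 0.31. As a result, *Samhd1* was at 0.598 to 0.672 of the FPKM of *Rrm1* with DMSO and at 2.15 to 2.23 times with DADA.

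**Figure D3:**
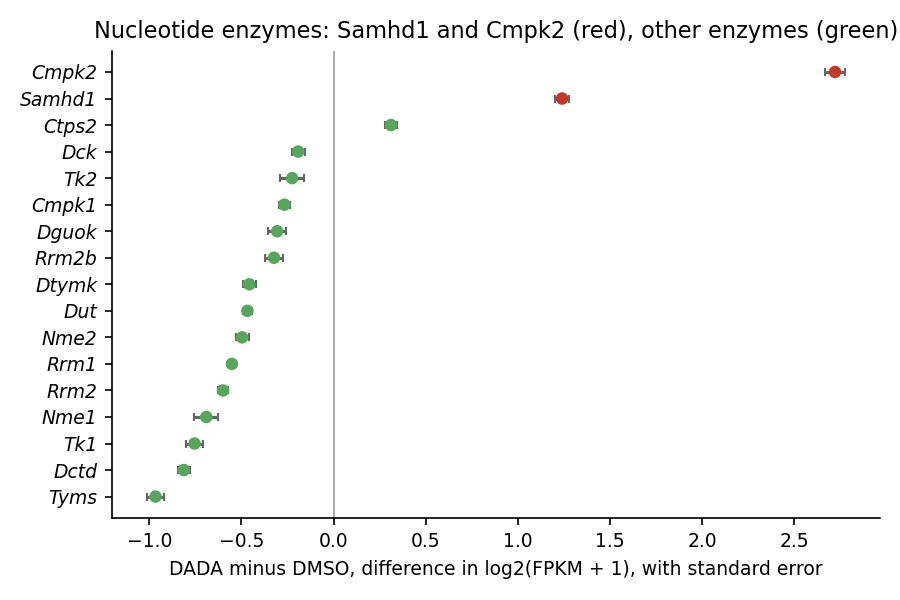
Difference in log2(FPKM + 1) between DADA and DMSO with its standard error (limma, n = 4 per group) for 15 enzymes of dNTP and CTP supply (green) and for Samhd1 and Cmpk2 (red). The enzymes lie between -0.97 and 0.31, with Ctps2 alone above 0, and Samhd1 and Cmpk2 lie at 1.24 and 2.72.

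APOBEC3 is a cytidine deaminase packaged into retroviruses. *Apobec3* (ENSMUSG00000009585) was at 148, 135, 147 and 139 FPKM with DMSO and at 158, 159.6, 160.2 and 166 FPKM with DADA. It thus stood among the more abundant transcripts already without DADA, ranking 411 of 10666 with DMSO and 352 with DADA, and the lowest DADA library was only 1.07 times the highest DMSO library. The log2 fold change was 0.18 (95% confidence interval 0.11 to 0.25, limma, adjusted p = 7.39e-04). Of its 75-base words, 5.14% also occur in transcripts of other genes.
The abundant genes kept the same order of means in both groups, but their spacing changed. With DMSO *Apobec3* was more than double *Bst2* and *Samhd1*, which overlapped each other. With DADA *Apobec3* overlapped *Bst2*, and *Bst2* overlapped *Samhd1*, so neighbours in this order did not differ beyond their spread. *Apobec3* made up 46.5% to 49.0% of the summed FPKM of the 10 genes with DMSO and 27.6% to 28.7% with DADA, while the sum rose from 298 ± 5.65 to 573 ± 6.30 FPKM (SD, n = 4).

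RTP4 is a Golgi chaperone of receptors that binds RNA and restricts flaviviruses. *Rtp4* (ENSMUSG00000033355) was at 0.387, 0.206, 0.355 and 0.398 FPKM with DMSO and at 8.64, 10.7, 10.8 and 9.64 FPKM with DADA. The DMSO libraries spread by a coefficient of variation of 26.4%, at about 2.3 to 10.7 estimated fragments each, a range that includes the choice between its shortest and longest coding transcript. Its log2 fold change was 3.03 ± 0.0789 (SE, adjusted p = 5.47e-10, limma), and the mean was 29.5 times higher with DADA. A share of 10.5% of its 75-base words also occurs in *Gm45338*.
With DADA, *Rtp4*, *Mx2* and *Rsad2* stood at nearly the same level, with overlapping libraries, and *Cmpk2* was just below them. With DMSO the same genes were ordered *Cmpk2*, *Rtp4*, *Mx2* and *Rsad2*, of which *Rtp4* overlapped both *Cmpk2* and *Mx2*. The 6 genes low with DMSO, *Mx1* and *Ifi44* included, made up 0.647% to 0.867% of the sum of the 10 genes with DMSO and 9.53% to 10.9% with DADA.

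*Ifi44* and *Ifi35* are named only for their induction by interferon, and their biochemical roles are less well understood. *Ifi44* (ENSMUSG00000028037) was at 0.0237, 0, 0.0512 and 0 FPKM with DMSO, which corresponds to about 1, 0, 2 and 0 fragments. With DADA it was at 1.95, 1.61, 1.88 and 1.36 FPKM, or about 74.0 to 99.6 fragments per library. Per mapped fragment, the estimated 343 fragments with DADA against 3 with DMSO are a ratio of 97.3, with a 95% counting interval of 33.0 to 474. The log2 fold change was 1.40 ± 0.0817 (SE, adjusted p = 2.02e-07, limma), a scale that understates the change of so low a gene. Its neighbour on chromosome 3, *Ifi44l*, was listed at 0 in all 8 libraries.
*Ifi35* (ENSMUSG00000010358) was at 29.7, 29.7, 28.8 and 28.1 FPKM with DMSO and at 52.0, 52.2, 48.0 and 55.2 FPKM with DADA. The groups were clearly apart, with a log2 fold change of 0.81 ± 0.0406 (SE, adjusted p = 6.74e-08, limma). IFI35 binds NMI, another interferon-induced protein, but the *Nmi* transcript, at 22.04 ± 1.42 FPKM (SD, n = 4) without DADA and 22.5 ± 1.75 FPKM with it, was not called (log2 fold change 0.03, limma, adjusted p = 0.686). *Ifi35* was therefore at 1.22 to 1.38 times *Nmi* with DMSO and at 2.21 to 2.53 times with DADA.

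**Figure D4:**
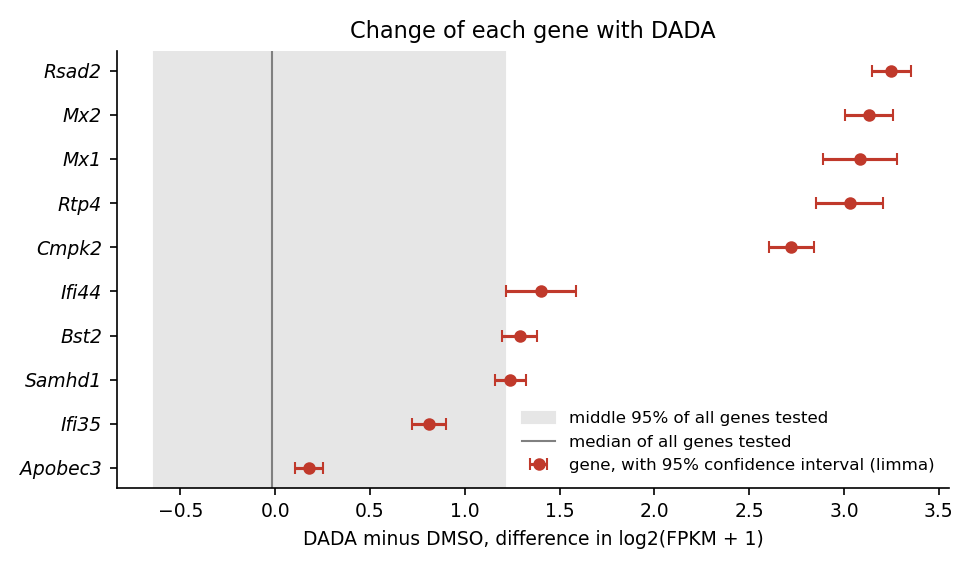
Difference in log2(FPKM + 1) between DADA and DMSO for each gene with its 95% confidence interval (limma, n = 4 per group), beside the median of all 10666 genes tested (grey line) and their middle 95% (grey band, -0.64 to 1.21). Mx1, Mx2, Rsad2, Rtp4 and Cmpk2 lie at 2.72 to 3.25, and Ifi35 and Apobec3 lie inside the band.

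A two-sided exact permutation test of the FPKM over the 70 assignments of the 8 libraries gave p = 0.0286 for each of the 10 genes, the smallest value that 4 against 4 libraries allow. Groups that do not overlap always give this value, so it restates their separation. Of all genes tested, 28.4% had such groups in this direction and 32.2% in the other.

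The interferon pathway above these genes was measured in the same libraries. The gene for type I interferon beta, *Ifnb1*, was listed at 0 in all 4 libraries with DMSO, and DADA 1 to 4 had 0.536, 0.412, 0.326 and 0.133 FPKM, below the filter. *Ifna2* and *Ifna4*, singled out after their values were seen, were also listed at 0 with DMSO and lay at 0.310 to 0.867 and 0.421 to 1.10 FPKM with DADA. The alpha genes are so similar that fragments could have been split between them, and 11 of the 21 ligand genes were listed at 0 in all 8 libraries. *Ifng*, the type II interferon, was abundant in both groups, with 404 ± 20.1 FPKM in DMSO and 649 ± 8.54 FPKM in DADA (SD, n = 4; log2 fold change 0.68, limma, adjusted p = 6.39e-08). Without the filter on low values, 6 of the ligand genes were called higher, with a background of 24.8% of genes. All of them but *Ifng* lay below the filter. With the filter, *Ifng* was the only 1 of the 21 ligand genes tested, and 30.9% of all genes tested were called higher.
The receptors went both ways. *Ifnar1* fell from 41.4 ± 0.607 to 31.9 ± 0.993 FPKM (log2 fold change -0.37, limma, adjusted p = 1.49e-06), *Ifngr1* rose from 71.3 ± 1.51 to 89.0 ± 0.716 FPKM (0.32, adjusted p = 7.45e-07), and *Ifnar2* (-0.07) and *Ifngr2* (-0.05) were not called.

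Of the 12 kinases and transcription factors of the pathway, 9 were called higher and 3 lower, where 30.9% and 35.3% of all genes tested were. *Stat2* rose from 11.9 ± 0.162 to 32.4 ± 0.576 FPKM and *Irf9*, its DNA-binding partner, from 11.98 ± 0.742 to 29.8 ± 0.883 FPKM (SD, n = 4). Their log2 fold changes were 1.38 and 1.25 (limma, adjusted p = 7.74e-11 and 5.22e-09). *Irf7*, which drives the interferon alpha genes, changed the most of these factors (3.83), and *Irf5* changed by 0.84. *Irf3*, *Irf1* and the kinase *Jak1* fell by 0.18, 0.18 and 0.16.
Of 8 genes listed here as feedback inhibitors of the pathway, 7 were called higher, against the same 30.9% of all genes. They were led by *Isg15* (5.16) and *Usp18* (4.27), with *Socs3* at 1.22 and *Trex1* at 0.49. *Usp18* passed the filter through the DADA libraries alone, so its place in this count was bound to the change. Of the other 7 genes, 6 were called higher, with a median log2 fold change of 0.33. *Trex1* was not called without the filter on low values (adjusted p = 0.0719, limma). It also lost its call when DMSO 2, DADA 1, DADA 2 or DADA 4 was left out (adjusted p of 0.0525 to 0.0915, limma). Each of these changes left 6 of the 8 genes called. A list of 59 other interferon-stimulated genes tested shares genes such as *Stat2*, *Irf7*, *Irf9*, *Usp18* and *Isg15* with the lists above. It had 55 called higher and 2 lower, with a median log2 fold change of 1.47. Of all genes tested, 30.9% were called higher and 35.3% lower, with a median of -0.02. Of the 59 listed genes, 10 passed the filter through the DADA libraries alone. Among the other 49 there were 45 called higher and 2 lower, with a median of 1.31. The largest changes of this list were in *Isg15*, *Usp18*, *Oasl1* (3.97) and *Irf7*. The 2 called lower were *Ly6e*, from 134 ± 2.51 to 101 ± 1.45 FPKM (-0.40), and the immunoproteasome subunit *Psmb8* (-0.10, and not called after quantile normalization), both of them abundant with DMSO.

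**Figure D5:**
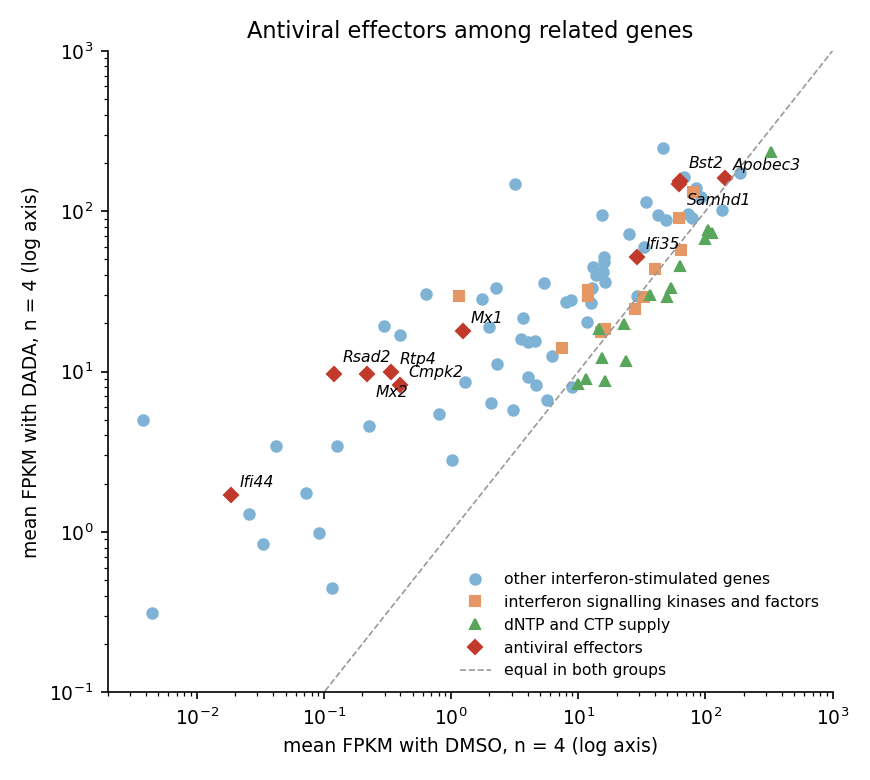
Mean FPKM with DMSO (x axis, log) against mean FPKM with DADA (y axis, log), n = 4 each, for the 10 antiviral effectors (red diamonds), other interferon-stimulated genes (blue), interferon signalling genes (orange) and enzymes of dNTP and CTP supply (green), with the dashed line where both are equal. The effectors lie above the line, Apobec3 close to it at 142 and 161 FPKM, and 14 of the 15 supply enzymes lie below it.

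Relatives of the antiviral effectors went both ways. Of 8 such genes tested, 2 were called higher and 5 lower, beside 30.9% and 35.3% of all genes tested, so that the share called higher was near the background. *Dnm1*, called higher, passed the filter through the DADA libraries alone. Among the other 7 genes, 1 was called higher and 5 lower. *Cmpk1*, the cytosolic counterpart of *Cmpk2*, fell from 36.5 ± 0.765 to 30.1 ± 0.833 FPKM (SD, n = 4; log2 fold change -0.27, limma, adjusted p = 1.71e-05). *Apobec1*, an RNA-editing relative of *Apobec3*, fell by 0.48 on the log2 scale to 1.10 ± 0.286 FPKM. Among the dynamins to which the MX proteins are related, *Dnm1l* fell by 0.16 and *Dnm1* rose by 0.88 from a low level of 0.308 ± 0.111 FPKM. The HD-domain relatives of *Samhd1* differed as well, with *Hddc2* at -0.24 and *Hddc3* at 0.30, the latter not called after quantile normalization. *Rtp1*, *Rtp2* and *Rtp3* were listed at 0 in every library.

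The estimated depth was 13670000 to 16370000 mapped fragments with DMSO and 15110000 to 18650000 with DADA, and all 8 libraries carried the markers of CD8 T cells. All 6 CD8 T cell markers measured (*Cd3d*, *Cd3e*, *Cd3g*, *Cd8a*, *Cd8b1* and *Cd2*) reached 1 FPKM. All 6 were called higher with DADA, where 30.9% of all genes tested were, with log2 fold changes between 0.08 and 0.75. *Cd3g*, with the smallest of these changes, was not called without the filter (limma, adjusted p = 0.0541). Their summed level was 837.5 to 857 FPKM with DMSO and 1064 to 1094 FPKM with DADA. The summed markers of B cells (2.59 to 3.56 FPKM with DMSO and 2.36 to 3.09 with DADA), NK cells (at most 0.395 FPKM) and erythroid cells (at most 0.4255 FPKM) were low in both groups, with *Pax5* listed at 0. Those of myeloid cells were at 3.47 to 3.98 FPKM with DMSO and 5.49 to 5.91 FPKM with DADA, mostly from *Cd68*. *Cd68* was called higher (log2 fold change 0.44, limma, adjusted p = 2.71e-05), while *Csf1r*, *Adgre1*, *S100a8*, *S100a9* and *Clec9a* were listed at 0 in every library. Without the filter, *Flt3*, *Xcr1* and *Itgam* were called higher (limma, adjusted p = 0.00526, 0.00294 and 0.0428), at no more than 0.131 FPKM. *Lyz2*, *Fcgr1* and *Ly6g* were not called without it. Of the NK cell markers, *Klrb1c* was called higher without the filter (limma, adjusted p = 5.07e-04), at no more than 0.249 FPKM. The other NK cell markers were not called. Without the filter, 24.8% of all genes were called higher. CD4 T cell markers summed to 16.3 to 17.4 FPKM with DMSO and 15.3 to 15.8 FPKM with DADA, mostly from *Zbtb7b*. *Zbtb7b* was called lower (log2 fold change -0.11, limma, adjusted p = 0.00606). Without the filter, *Foxp3* was called higher and *Cd40lg* lower (limma, adjusted p = 4.84e-04 and 0.0130), at no more than 0.279 FPKM. *Cd4*, at no more than 0.411 FPKM, was not called without the filter. The part of these marker differences in the values of the antiviral effectors was not tested.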

How the data were processed

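The authors deposited 1 FPKM value per gene and library for 8 libraries of paired reads. Per the labels, the submitters' processing notes name HISAT2 2.0.5 and StringTie 1.3.3, among others, and the builds GRCm39 and GRCh38. The annotation and the strand setting are not given in the sources used here. Libraries were grouped by their titles, Ctrl being DMSO.

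FPKM values were used as deposited, as log2(FPKM + 1), for 10666 genes that reached 1 FPKM in at least 4 libraries. limma 3.58.1 in R 4.3.3 (lmFit, eBayes with a mean-variance trend, Benjamini-Hochberg over all genes tested, call under 0.05) was tested on simulated data. Exact permutation tests and figures used scipy 1.17.1 and matplotlib 3.10.9 in Python 3.11.15. FPKM holds no counts: depth was inferred from steps among the low values of 4431 genes with 1 transcript in GENCODE M21, where 41.7% to 47.2% of values lay within 0.1 of a whole number of fragments and chance gives 20%. No count test was run on it, and counting intervals cover counting error only. Promoter windows came from RefSeq (GRCm38.p6) by symbol, and no coordinates were joined to the FPKM rows. *Mx1*, *Mx2* and *Rtp4* had no window in the table.

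The 10 genes and all lists were chosen with earlier results of these data known, so no test was run over a list. Genes were named by rule: the 10 effectors, a fixed set of pathway genes, and up to 4 called genes per list and direction, taken by size of change. The lists were interferon ligands, receptors, kinases and factors, feedback inhibitors, other interferon-stimulated genes, relatives of the effectors, dNTP and CTP supply, and cell type markers. Values of some genes in these lists are not reported here.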

Additional observations from a re-analysis of the deposited data

Results flagged for a closer look

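For each gene named and each treatment, the gap between an extreme library and its nearest neighbour was divided by the spread from lowest to highest, and compared with Dixon's critical value. It exceeded that value in 4 of 91 sets of 4 libraries, where chance alone does so in around 1 in 20. Of the 20 groups of the antiviral effectors, 1 was among them: *Bst2* with DMSO (ratio 0.881), where DMSO 3 was at 65.3 FPKM and the others at 61.8 to 62.3 FPKM, a gap that is small beside the DADA values of 142 to 163 FPKM. The others were *Usp18* with DADA (0.861, DADA 2 at 31.8 FPKM against 29.9 to 30.2), *Rrm2* with DMSO (0.846, DMSO 1 at 107 FPKM against 113 to 114) and *Irf3* with DMSO (0.854, DMSO 4 at 27.0 FPKM against 28.1 to 28.3). No explanation of these values was tested.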

How the results depend on the processing

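All 156 values of the 10 antiviral effectors under the 16 alternatives (8 settings and 8 libraries left out in turn) were above DMSO and called, with 0.00307 as the highest adjusted p-value (limma), for *Apobec3* with the replicate block. With the replicate number of the titles as a block, 6995 genes were called, against 7064 without it, and all 10 effectors kept their call. Same-numbered libraries did not deviate together (correlations over genes of -0.12 to 0.10), and most did not correlate best with their own number, so the numbers are not taken as pairs. The median log2 fold change of the effectors moved to 3.85 with a pseudocount of 0.1, 2.79 after rescaling to the same total (TPM) and 1.89 with quantile normalization. It was 1.26 with a mean of at least 5 FPKM, which only removed effectors and left 6, all called higher. That mean was taken over all 8 libraries. *Mx1* and *Rtp4*, with DMSO means of 1.23 and 0.337 FPKM, therefore passed it through their DADA values. The TPM scale has larger values, so that a pseudocount of 1 weighs less. Of the lists, 6 ligand genes were called higher with no filter. Relatives called higher numbered 0 under the filter on the mean and 1 under quantile normalization, where *Hddc3* lost its call. Quantile normalization also called 1 feedback inhibitor lower (*Pias1*), against 0, and 1 other interferon-stimulated gene lower, against 2, since *Psmb8* lost its call. *Dnm2*, a dynamin called lower, lost its call under 3 settings, and also when DMSO 2, DMSO 3, DADA 3 or DADA 4 was left out. Leaving out 1 library gave 10 effectors called each time, a median of 2.04 to 2.09, 6700 to 6848 genes called, 6 to 7 feedback inhibitors higher (6 where *Trex1* lost its call), and 1 to 2 receptors lower, with 2 only without DADA 2 (*Ifnar2*). The cause of the changes in the lists was not tested. The depth limits *Ifi44*, *Rsad2*, *Mx2* and *Rtp4* with DMSO to about 10.7 fragments or fewer per library.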

Other observations

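The 10 antiviral effectors did not order the libraries of a group in the same way. DMSO 2 was the lowest DMSO library for 5 of the 10 genes, tied with DMSO 4 at 0 FPKM for *Ifi44*. It was the highest for 0, while DMSO 1 was the highest for 4. With DADA, DADA 3 was the highest for 5 genes (*Mx1*, *Rsad2*, *Cmpk2*, *Samhd1* and *Rtp4*) and the lowest for 2 (*Bst2* and *Ifi35*). The summed FPKM of the 10 genes was 291 to 303 in the DMSO libraries and 564 to 579 in the DADA libraries.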
